A study of Mus musculus with 3 samples.

Results

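The genes described here are 41 genes of DNA repair and of the p53 checkpoint, taken by name from a list, among 21881 gene symbols measured by total RNA sequencing. All 41 were found under their own symbols, with 1 row each. They comprise 11 genes of homologous recombination, 8 break sensors and checkpoint kinases, the p53 axis of 3 genes, 3 of end joining, 3 of single-strand break repair, 9 of the Fanconi anaemia pathway, 2 RecQ helicases and 2 of mismatch repair. They were measured in 3 snap-frozen tumours grown from the transplantable line NDL(UCD), which stems from an ErbB2 model of mouse mammary cancer. Tumours of NDL mice are known to arise from a mutant Neu (Erbb2) transgene under a mouse mammary tumour virus promoter. Cells of the line were expanded in culture and injected into the uncleared mammary fat pads of FVB/NJ females, which were 6 to 8 weeks old. Tumours were collected once they measured 5 to 10 mm across. Each tumour grew in a different mouse, and all came from the same line, so they are not independent tumours of origin. The spread between them holds host animal and library together, and these cannot be told apart. The host glands were uncleared, so mouse mammary tissue could be part of a sample. There was no normal gland and no treated group among the samples, so levels were set against fixed values, against other genes and against the other tumours.

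Homologous recombination copies an intact sister sequence to mend a broken chromosome, end joining ligates the ends directly, and the Fanconi anaemia proteins unhook crosslinked strands so that recombination can follow. The kinases Atm and Atr sense breaks and stalled forks and signal through Chek2 and Chek1 to p53, encoded by Trp53, which halts the cell cycle or starts cell death. Mdm2 and Mdm4 hold p53 in check. Inherited defects in several of these genes predispose to breast cancer in people, and cells without BRCA1 or BRCA2 depend on PARP1.

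Upstream sequences of 4 members are shown because they stand for the 2 patterns among the genes. Brca1 and Atm differed between the tumours and were highest in tumour 1, while Parp1 and Trp53 did not pass that test. Each is the 250 bases before the gene's annotated start on the gene's own strand, from RefSeq on GRCm38.p6, in lower case, with matches in capitals to the CCAAT box (CCAAT), the GC box (GGGCGG), the cell-cycle homology element CHR (TTTGAA) and an E2F-type motif (TTTNGCGC) on either strand. No motif shared a base with another in these 4 windows.
Brca1, chr11:101551956-101552205, minus strand: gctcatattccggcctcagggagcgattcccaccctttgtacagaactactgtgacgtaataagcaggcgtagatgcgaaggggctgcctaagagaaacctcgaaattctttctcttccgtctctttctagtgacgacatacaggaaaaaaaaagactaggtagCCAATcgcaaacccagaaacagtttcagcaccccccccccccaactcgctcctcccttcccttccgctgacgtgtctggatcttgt
Atm, chr9:53536672-53536921, minus strand: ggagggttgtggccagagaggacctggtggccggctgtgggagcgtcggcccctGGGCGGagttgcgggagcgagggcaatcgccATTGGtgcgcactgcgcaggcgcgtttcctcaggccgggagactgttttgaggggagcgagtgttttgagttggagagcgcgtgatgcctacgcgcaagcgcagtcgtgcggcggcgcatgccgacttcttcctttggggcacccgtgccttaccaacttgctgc
Trp53, chr11:69580109-69580358, plus strand: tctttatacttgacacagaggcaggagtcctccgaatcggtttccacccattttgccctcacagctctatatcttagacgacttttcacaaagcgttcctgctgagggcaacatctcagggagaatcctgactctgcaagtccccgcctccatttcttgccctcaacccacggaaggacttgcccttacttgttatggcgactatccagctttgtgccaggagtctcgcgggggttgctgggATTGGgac
Parp1, chr1:180568641-180568890, plus strand: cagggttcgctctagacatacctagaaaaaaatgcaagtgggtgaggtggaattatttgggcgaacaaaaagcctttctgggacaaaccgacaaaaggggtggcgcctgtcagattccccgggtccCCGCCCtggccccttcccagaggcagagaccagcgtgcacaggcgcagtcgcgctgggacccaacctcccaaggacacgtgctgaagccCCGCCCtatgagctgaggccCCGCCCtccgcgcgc
The CCAAT box began 86 bases before the start in Brca1, 165 in Atm and 8 in Trp53. Atm had 1 GC box and Parp1 had 3, and neither Brca1 nor Trp53 had one. An upstream window was given for 35 of the 41 members, all but Rad54b, Xrcc2, Rad50, Nbn, Fancd2 and Wrn. The CCAAT box was found in 20 of these 35 (57.1%), against 33.9% of 32851 mouse promoter windows of this length. The GC box was found in 22 of 35 (62.9%), against 32.7% of all windows. CHR was found in 1 of 35 (2.86%), against 15.99% of all windows, and the E2F-type motif in 0 of 35, against 1.13%. Among the 9 members with a window that differed between tumours, 5 had a CCAAT box, 6 had a GC box and none had CHR. These counts describe letters in the windows only. The median GC content was 56.8% in the 37 windows of members, against 52.4% in all windows, and its part in the counts was not tested. A member was counted if any of its windows matched, whereas all windows were counted singly.

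Nearly all of the genes were low to moderate in level, and they spanned a range from Fancg to Parp1. The value used throughout is FPKM, the fragments scaled to transcript length and to the library's total that the authors deposited. Genes of unlike length can therefore be compared in level, but FPKM by this definition is not scaled to base composition. The removal of GC and length trends described further on leaves each gene's mean over the tumours nearly in place. A GC effect shared by all 3 libraries would thus remain in comparisons between genes, and it was not tested. The gene with the lowest mean was Fancg at 0.789 ± 0.264 FPKM, and the highest was Parp1 at 15.9 ± 3.01 FPKM (SD, n = 3). The median member lay at 3.11 FPKM, against 2.44 FPKM for all 18028 symbols tested and 6.25 FPKM for the 11058 with a mean of at least 1 FPKM. In limma's test on the log2(FPKM + 0.1) scale, 29 of 41 members (70.7%) were above 1 FPKM at a Benjamini-Hochberg adjusted p under 0.05, against 54.2% of all symbols tested. No member was below 1 FPKM, against 32.5% of all symbols. The other 12 (29.3%) could not be separated from 1 FPKM. These were Bard1, Brca2, Palb2, Brip1, Rad54b, Nbn, Chek1, Fancd2, Fance, Fancf, Fancg and Blm. Of the 29, Wrn lost its call without tumour 1 or without tumour 2, Rad54l and Xrcc3 without tumour 2 or without tumour 3, and Fanci without tumour 2. In bulk tumours, fewer cells with a transcript and less of it per cell cannot be told apart.

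Against 5 FPKM, 7 members (17.1%) were above, against 25.0% of all symbols, and 22 (53.7%) were below, against 54.9%. The 7 were Parp1, Mdm4, Xrcc6, Mdm2, Xrcc5, Trp53 and Trp53bp1. Without tumour 2, 14 members were below 5 FPKM and 3 above, Parp1, Mdm4 and Xrcc6, and without tumour 3 the calls of Trp53 and Trp53bp1 were lost. When all members were put in order of their means, 2 of the 40 gaps between neighbours were wider than the larger of the neighbours' SDs. These were the gap from Xrcc6 down to Mdm2 and the gap from Xrcc2 down to Parp2, so most neighbours in the order did not differ beyond their spread. The members' levels rested on 26 implied fragments (Fancf in tumour 1) to 2099 (Parp1 in tumour 3), with a median of 287.

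**Figure D1:**
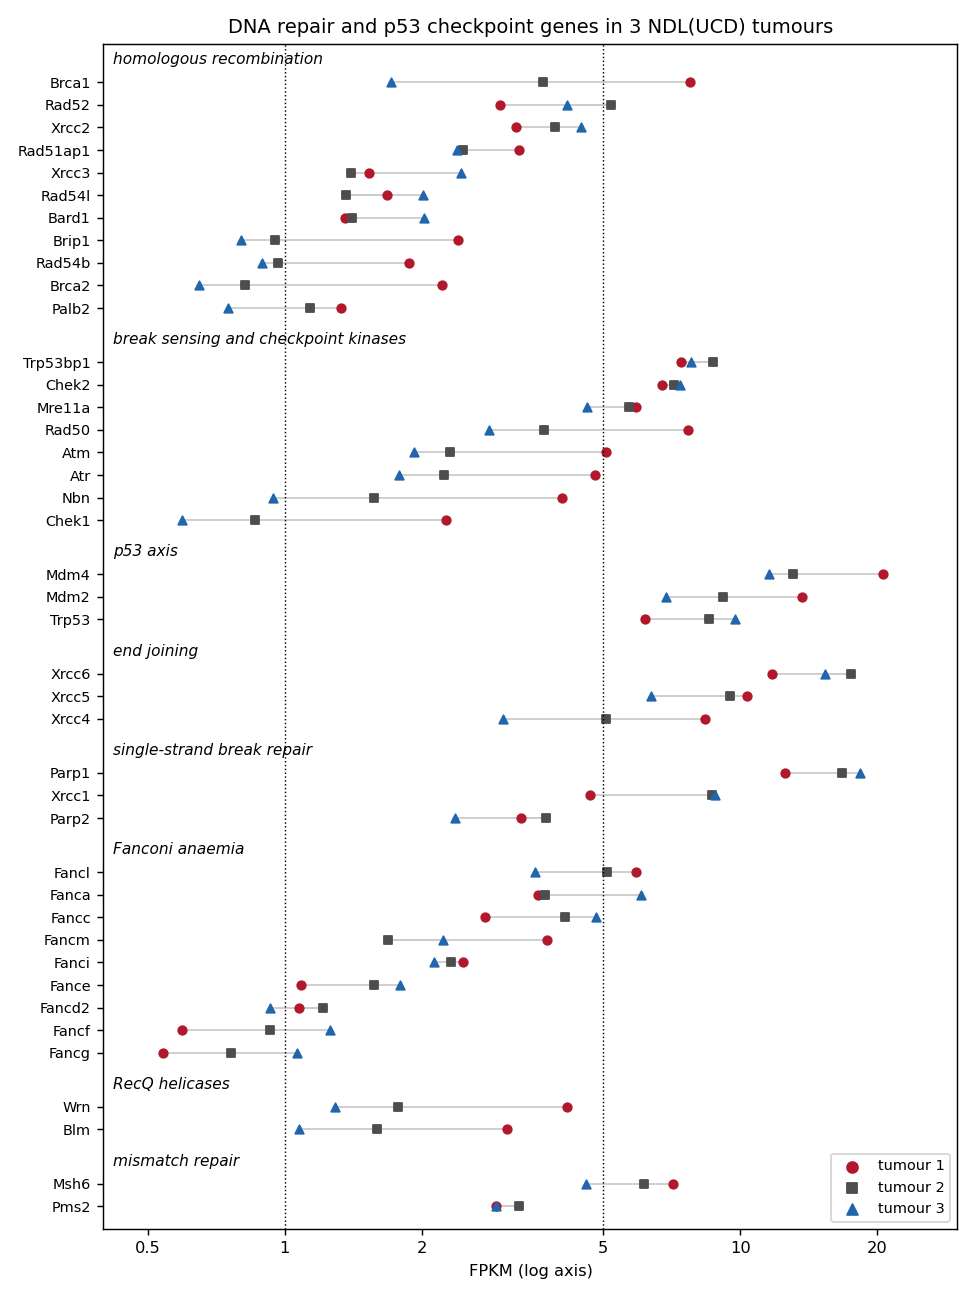
FPKM of each of the 41 genes (log axis) in tumour 1 (circles), tumour 2 (squares) and tumour 3 (triangles), grouped by role, with dotted lines at 1 and 5 FPKM. Parp1, Mdm4 and Xrcc6 lie to the right of 5 FPKM in all 3 tumours, and the widest spans belong to Brca1, Nbn and Chek1.

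Among the genes of homologous recombination, Brca1 and Rad52 had the highest means and Palb2 the lowest. Of the 11, 6 were above 1 FPKM, against 54.2% of all symbols tested. Brca1, the ubiquitin ligase subunit that promotes resection of broken ends (mm9 chromosome 11, 101350078 to 101413269), had 7.75, 3.69 and 1.71 FPKM in tumours 1, 2 and 3, a mean of 4.38 ± 3.08. The deposited intervals, which cover counting error only, ran from 7.34 to 8.15, from 3.41 to 3.98 and from 1.53 to 1.89 FPKM. None of the 3 intervals overlapped. Brca1 was 1.78 ± 0.39 log2 units above 1 FPKM (SE; limma adjusted p = 0.00293).

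Brca2, a mediator of strand exchange (mm9 chromosome 5, 151325198 to 151372324), had 2.22, 0.816 and 0.650 FPKM in tumours 1, 2 and 3. Only tumour 1 was above 1 FPKM, and the mean of 1.23 ± 0.861 was not separated from that level (limma adjusted p = 0.83). Brca1 exceeded Brca2 in all 3 tumours, by 1.69 ± 0.39 log2 units on the log2(FPKM + 0.1) scale (SD, n = 3), a fold of 3.23. The exact two-sided sign-flip test over 3 tumours cannot give less than p = 0.25, which this pair reached, and its Benjamini-Hochberg value over the 23 gene pairs compared was 0.36. The same p holds for every pair given as same-signed in all 3 tumours, so such pairs are judged by their size against their SD.

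The binding partners of the BRCA proteins were low. Bard1, the obligate partner of Brca1 in the ligase, had 1.35, 1.41 and 2.02 FPKM in tumours 1, 2 and 3. It was highest in tumour 3, where Brca1 was lowest. Bard1 over Brca1 stood at -2.43, -1.33 and 0.23 log2 units in tumours 1, 2 and 3, so the mean of -1.18 ± 1.34 did not exceed its spread. Palb2, the bridge between Brca1 and Brca2, had 1.33, 1.14 and 0.751 FPKM. Palb2 and Brca2 differed by -0.03 ± 0.59 log2 units on average, with Palb2 the lower in tumour 1 and the higher in tumours 2 and 3. Brip1, a helicase that binds Brca1, had 2.40, 0.950 and 0.801 FPKM and was above 1 FPKM in tumour 1 alone.

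The remaining recombination genes act in strand annealing and exchange. Rad52, an annealing protein, had 2.97, 5.21 and 4.17 FPKM in tumours 1, 2 and 3. Rad51ap1, which promotes strand exchange, had 3.27, 2.47 and 2.39 FPKM. Unlike Brca1, Rad52 was lowest in tumour 1, and Rad51ap1 spanned 1.37-fold. Xrcc2 had 3.23, 3.93 and 4.46 FPKM, and Xrcc3 had 1.53, 1.40 and 2.44 FPKM. Xrcc3 was below Xrcc2 in all 3 tumours, with a log2 ratio of -1.10 ± 0.30. The Xrcc3 value is uncertain, because 3583 bp of its 10649 bp locus overlap Klc1, which was at 13.5, 21.9 and 24.0 FPKM, and the sources used here do not give the strand setting of the quantification. The translocases Rad54l (1.67, 1.36 and 2.01 FPKM) and Rad54b (1.87, 0.966 and 0.891 FPKM) changed order between tumours, with Rad54l over Rad54b at 0.47 ± 0.62 log2 units.

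The break sensors were uneven in level within their complexes. Mre11a, the nuclease of the complex that first binds a broken end, had 5.91, 5.71 and 4.61 FPKM in tumours 1, 2 and 3 (mean 5.41 ± 0.701). Rad50, its ATPase partner, had 7.69, 3.70 and 2.81 FPKM. Nbn, the subunit that brings Atm to the complex, had 4.05, 1.57 and 0.942 FPKM. Mre11a spanned 1.28-fold over the tumours, against 2.74-fold for Rad50 and 4.30-fold for Nbn. Nbn was below Mre11a in all 3 tumours, with a log2 ratio of -1.501 ± 0.86, and below Rad50 in all 3, with -1.19 ± 0.29. Rad50 was above Mre11a in tumour 1 and below it in the others (-0.31 ± 0.59).

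The apical kinases Atm and Atr were nearly level with each other. Atm, the kinase activated by broken ends (mm9 chromosome 9, 53245227 to 53344776), had 5.09, 2.31 and 1.93 FPKM in tumours 1, 2 and 3. Atr, the kinase activated at stalled forks, had 4.81, 2.24 and 1.78 FPKM. Both were highest in tumour 1 and lowest in tumour 3, but lowest in tumour 2 with the GC and length trends described further on removed (3.42, 2.54 and 2.66 FPKM for Atm, 2.84, 2.53 and 2.68 FPKM for Atr). Atr was below Atm in all 3, with a log2 ratio of -0.08 ± 0.03 and a fold of 0.948, and this SD was the smallest of the 23 pairs. With those trends removed, the pair stood at -0.08 ± 0.15 log2 units and changed sign between tumours.

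Their effector kinases stood far apart. Chek1, the effector kinase of Atr, had 2.25, 0.862 and 0.595 FPKM in tumours 1, 2 and 3. Chek2, the effector kinase of Atm, had 6.73, 7.15 and 7.36 FPKM. No tumour had as much Chek1 as Chek2, and the gap was narrowest in tumour 1. Chek1 over Chek2 stood at -1.54, -2.91 and -3.42 log2 units in tumours 1, 2 and 3 (-2.62 ± 0.98, SD), a fold of 0.162. With the trends removed the SD of this difference was 0.40. Chek2 spanned 1.09-fold over the tumours, the narrowest ratio of the 39 members tested for it, and its Q test gave an adjusted p of 0.41 over all symbols. Trp53bp1, the chromatin reader that favours end joining over resection, had 7.40, 8.74 and 7.79 FPKM. It was close to Brca1 in tumour 1 (-0.07 log2 units) and above it in tumours 2 and 3 (1.22 and 2.12), a mean of 1.09 ± 1.10.

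All 3 genes of the p53 axis were above 5 FPKM, against 25.0% of all symbols tested. Trp53, the tumour suppressor (mm9 chromosome 11, 69393861 to 69405375), had 6.17, 8.53 and 9.74 FPKM in tumours 1, 2 and 3, a mean of 8.14 ± 1.81. It was lowest in tumour 1, where its interval of 5.44 to 6.90 FPKM lay below those of the others, 7.65 to 9.41 and 8.85 to 10.6 FPKM. Its level against 5 FPKM was 0.67 log2 units (limma adjusted p = 0.033). Mdm2, the ubiquitin ligase of p53 and itself a p53 target, had 13.7, 9.15 and 6.88 FPKM. Mdm4, the related inhibitor that lacks ligase activity of its own, had 20.6, 13.1 and 11.6 FPKM. Both inhibitors were highest in tumour 1 and lowest in tumour 3, the reverse order to Trp53. With the GC and length trends removed, Mdm2 kept this order at 13.5, 8.67 and 7.37 FPKM. Trp53 then stood at 8.29, 7.78 and 7.92 FPKM and Mdm4 at 15.1, 13.6 and 15.3 FPKM, so neither kept it. Mdm2 was below Mdm4 in all 3 tumours, with a log2 ratio of -0.61 ± 0.12, a fold of 0.654. The 3 ratios were -0.16, -0.64 and -1.05 (-0.62 ± 0.44) with the trends removed, so the sign held and the mean was no longer beyond 2 SD. Trp53 against Mdm2 changed sign, with -1.13, -0.10 and 0.49 log2 units in tumours 1, 2 and 3 (-0.25 ± 0.82). With the trends removed these were -0.70, -0.15 and 0.10, with an SD of 0.41.

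Of the end-joining genes, both Ku subunits were above 5 FPKM, against 25.0% of all symbols tested. Xrcc6, the Ku70 subunit, had 11.8, 17.5 and 15.3 FPKM in tumours 1, 2 and 3. Xrcc5, the Ku80 subunit, had 10.4, 9.50 and 6.38 FPKM. Xrcc4, the scaffold of the ligase that seals the ends, had 8.37, 5.07 and 3.02 FPKM. Xrcc6 was lowest in tumour 1, whereas Xrcc5 and Xrcc4 were highest there. With the trends removed Xrcc6 was at 15.7, 15.99 and 12.5 FPKM and lowest in tumour 3, and Xrcc5 and Xrcc4 were still highest in tumour 1. Xrcc6 exceeded Xrcc5 by 0.18, 0.88 and 1.25 log2 units (0.77 ± 0.54). With the trends removed the same differences were 0.64, 0.82 and 0.84, a mean of 0.77 ± 0.11. Xrcc5 exceeded Xrcc4 by 0.75 ± 0.39 log2 units.

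In single-strand break repair, Parp1 led the whole set. Parp1, the polymerase that marks DNA breaks with poly(ADP-ribose) (mm9 chromosome 1, 182499106 to 182531385), had 12.5, 16.7 and 18.4 FPKM in tumours 1, 2 and 3. Parp2, its smaller relative, had 3.30, 3.74 and 2.36 FPKM. Xrcc1, the scaffold that binds their product, had 4.68, 8.66 and 8.80 FPKM. Parp1 was above both in every tumour, and with the trends removed it stood at 16.2, 15.4 and 15.4 FPKM. It exceeded Parp2 by 1.89, 2.13 and 2.91 log2 units, a mean of 2.31 ± 0.53 (SD, n = 3) and a fold of 4.96. It exceeded Xrcc1 by 1.13 ± 0.24 log2 units, a fold of 2.19. Parp1 was higher than 86.0% of all symbols tested by its mean.

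The Fanconi anaemia genes held the lowest members. Of the 9, 5 were above 1 FPKM and none above 5, against 54.2% and 25.0% of all symbols tested. In the core complex that modifies the clamp, Fancl, the ligase subunit, had 5.91, 5.11 and 3.54 FPKM in tumours 1, 2 and 3, and Fanca had 3.59, 3.74 and 6.05 FPKM. Fancc had 2.75, 4.13 and 4.82 FPKM, and Fancm, the translocase that anchors the complex, had 3.76, 1.68 and 2.22 FPKM. Fancl and Fancm were highest in tumour 1, and Fanca and Fancc in tumour 3, and with the trends removed Fancl was highest in tumour 2 (5.32 FPKM). Fance had 1.09, 1.57 and 1.79 FPKM. Fancf had 0.594, 0.927 and 1.26 FPKM, and Fancg had 0.540, 0.763 and 1.07 FPKM. These 3 core subunits were lowest in tumour 1 and were not separated from 1 FPKM, and with the trends removed none of the 3 was lowest there. The clamp itself is a pair, and Fanci (2.46, 2.31 and 2.13 FPKM) exceeded Fancd2 (1.08, 1.21 and 0.928 FPKM) in all 3 tumours by 1.04 ± 0.14 log2 units, a fold of 2.06. Fancd2 was below Fanca in all 3 tumours, with a log2 ratio of -1.93 ± 0.57, and Fanca and Fancc did not keep their order (0.18 ± 0.28). Fanci and Fanca overlap other genes, by 882 bp with Polg and by 2308 bp with Zfp276, and Fancl overlaps Vrk2 by 475 bp, so their values are uncertain to that extent.

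The RecQ helicases unwind structures at stalled forks. Blm had 3.08, 1.60 and 1.07 FPKM in tumours 1, 2 and 3, and Wrn had 4.16, 1.78 and 1.29 FPKM. Both were highest in tumour 1 and lowest in tumour 3, and Blm was below Wrn in all 3, with a log2 ratio of -0.27 ± 0.14. In mismatch repair, Msh6, which recognises base mismatches, had 7.13, 6.16 and 4.59 FPKM. Pms2, an endonuclease of the pathway, had 2.90, 3.27 and 2.91 FPKM. Msh6 exceeded Pms2 in all 3 tumours, by 0.93 ± 0.32 log2 units, a fold of 1.91.

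Over all 23 pairs, 16 had the same sign in all 3 tumours, and in 12 of these the mean was beyond 2 SD. The other 7 changed sign between tumours. With the trends removed, 17 had the same sign in all 3 and 12 of these were beyond 2 SD. Of the pairs beyond 2 SD as deposited, Atr over Atm and Mdm2 over Mdm4 then were not, and Xrcc6 over Xrcc5 and Xrcc5 over Xrcc4 then were. Smaller overlaps that leave a value uncertain were those of Atr with 1700065D16Rik (724 bp), Trp53bp1 with Tubgcp4 (390 bp), Rad54l with Lrrc41 (89 bp) and Msh6 with Fbxo11 (34 bp).

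**Figure D2:**
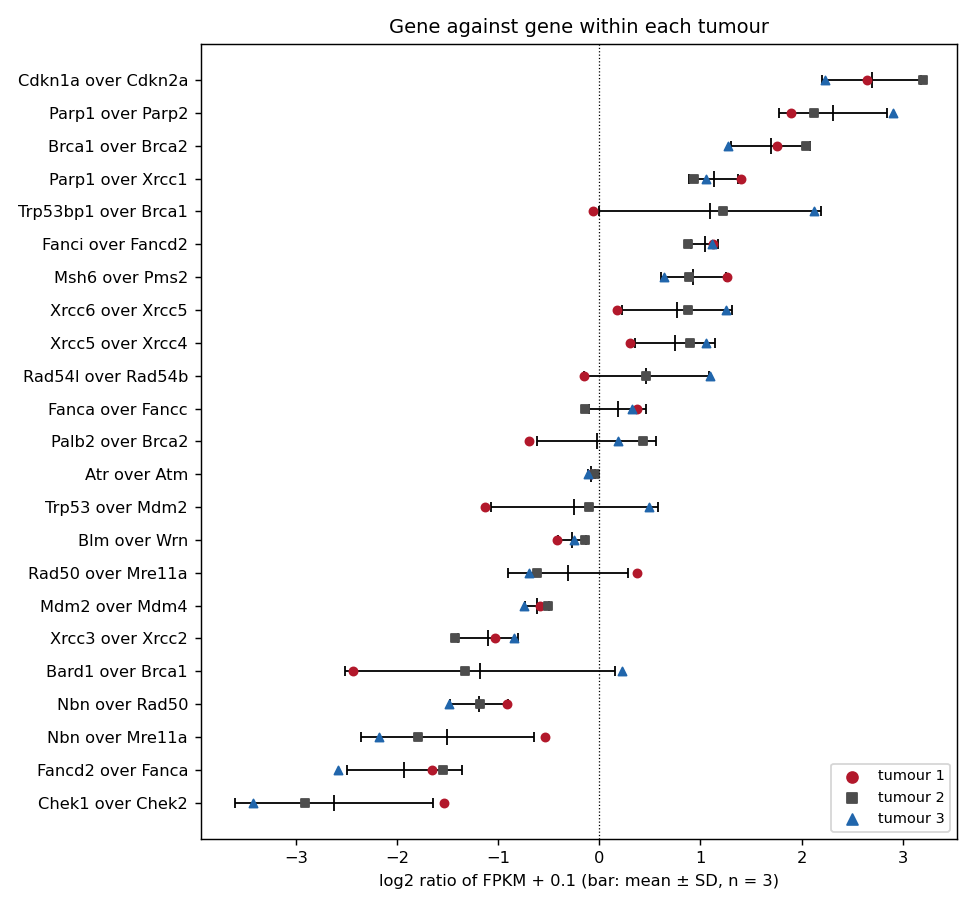
Log2 ratio of FPKM + 0.1 for the 23 gene pairs within tumour 1 (circles), tumour 2 (squares) and tumour 3 (triangles), with a bar for the mean ± SD (n = 3) and a dotted line at equal levels. Chek1 lies furthest below its partner Chek2 (-2.62), Cdkn1a over Cdkn2a (2.69) and Parp1 over Parp2 (2.31) lie furthest above, and Atr over Atm has the shortest bar.

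Among the members, 13 differed between the tumours and each of these was highest in tumour 1. The test was Cochran's Q on FPKM with the standard errors that the deposited intervals give, and a member was called at an adjusted p under 0.05 with a highest value at least 2 times its lowest. It compares 3 libraries against counting error and not conditions. It called 13 of 39 members tested (33.3%), against 32.5% of 11058 symbols, so the share was near that of all genes. The 13 that were called and highest in tumour 1 are 33.3% of the members tested, against 15.7% of all symbols. Among them, Brca2, Brip1, Chek1 and Rad54b were above 1 FPKM in tumour 1 alone. They reached the mean of 1 FPKM that the test required only through that tumour, so the filter favoured their direction. Of the 39 members tested, 12 were called and lowest in tumour 3, against 15.2% of the 11058 symbols. Fancm alone was called and lowest in tumour 2, against 2.16% of those symbols. No member was called and lowest in tumour 1, against 15.1% of all symbols, or highest in tumour 2 or 3, against 3.64% and 13.2%. Fancf and Fancg had means under 1 FPKM and were not tested. Without the ratio, 35 of 39 (89.7%) passed, against 91.6% of all symbols.

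The 13 spanned recombination, damage signalling and the helicases. Their ratios of highest to lowest were 4.53 for Brca1, 4.30 for Nbn, 3.79 for Chek1, 3.41 for Brca2 and 3.22 for Wrn. They were 3.00 for Brip1, 2.87 for Blm, 2.77 for Xrcc4, 2.74 for Rad50 and 2.70 for Atr. The lowest were 2.64 for Atm, 2.23 for Fancm and 2.10 for Rad54b, and Mdm2 lay just outside at 1.98. By role, they were 4 of 11 recombination genes, 5 of 8 sensors and kinases and 1 of 3 end-joining genes. The others were 1 of the 7 Fanconi genes tested and both RecQ helicases. No gene of the p53 axis, of single-strand break repair or of mismatch repair was among the 13. Of all symbols, 32.5% were called. With the GC and length trends described further on removed, 1 recombination gene and 1 sensor were called, against 17.2% of all symbols. Without tumour 1, only Brca1 was called (3.69 and 1.71 FPKM in tumours 2 and 3), with 5.72% of all symbols called. Brca2, Brip1, Chek1 and Rad54b had under 1 FPKM in tumours 2 and 3 and so were not tested without tumour 1. Without tumour 2, 12 of the 13 were called and Fancm was not, with 29.6% of all symbols called. Without tumour 3, 10 were called, and Blm, Rad54b and Xrcc4 were not, with 14.2% of all symbols called.

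**Figure D3:**
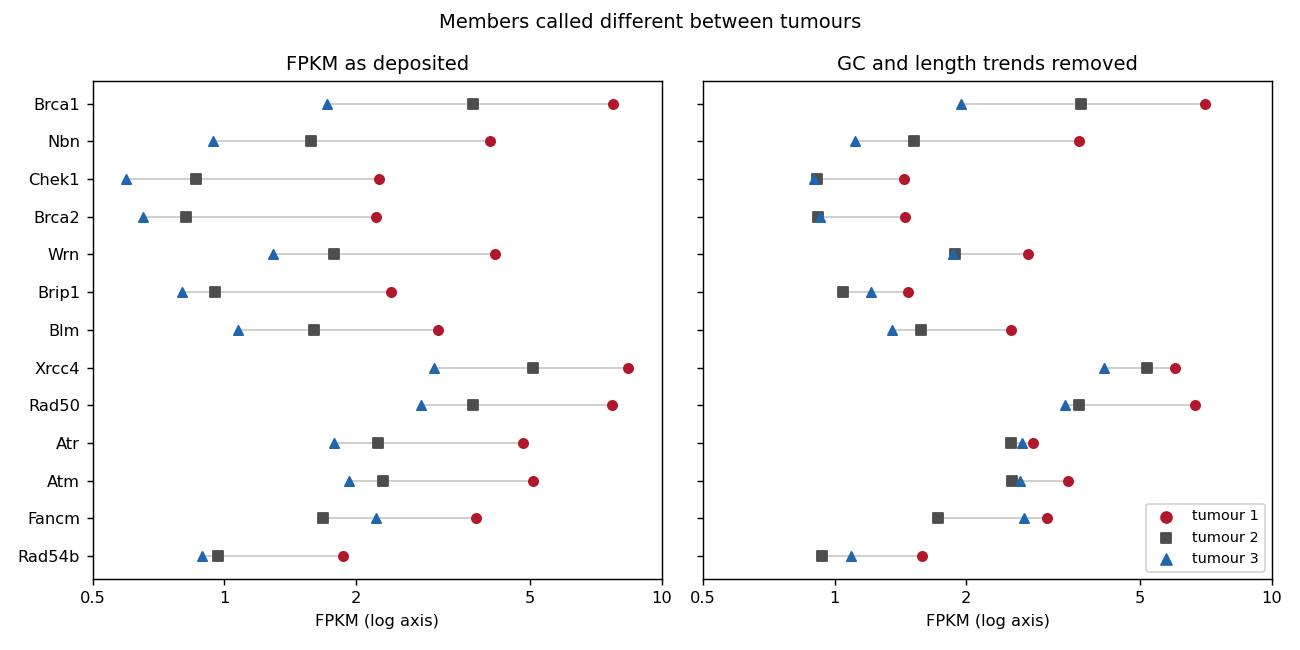
FPKM (log axis) of the 13 members called different between tumours, as deposited (left) and with the trends on GC content and transcript length removed (right), for tumour 1 (circles), tumour 2 (squares) and tumour 3 (triangles). On the left tumour 1 is the highest in all 13, and on the right the spans are shorter, and Brca1 and Nbn alone still span more than 2-fold.

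The difference between tumours followed the base composition of the transcripts. The 13 called members had GC contents of 40.8% to 46.2% (median 42.6%) in their longest annotated transcript, and the 26 tested and not called had 41.04% to 61.4% (median 47.3%). The median transcript length was 6262 bases in the called and 3425 bases in the others. Of the 13 members with a GC content under 45%, all were higher in tumour 1 than in tumour 3, as were 80.1% of all symbols in that range. Of the 10 members over 50%, all were lower in tumour 1, as were 92.8% of all symbols. Of the 18 in between, 11 were higher in tumour 1, against 44.6% of all symbols. Across the 41 members, GC content and the log2 ratio of tumour 1 over tumour 3 had a Pearson r of -0.79 and a Spearman rho of -0.84. Across 10923 symbols r was -0.66. Genes within a library are not independent replicates, and the points share their 2 libraries.

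A smooth trend of each tumour's values on GC content and on transcript length was then removed. The members' r on GC content became -0.21, and that of all symbols became 0.07. Of the members, 2 were then called different (5.13%), against 17.2% of all symbols. Brca1 stood at 7.01, 3.66 and 1.94 FPKM in tumours 1, 2 and 3, a ratio of 3.61, and Nbn at 3.61, 1.52 and 1.11 FPKM, a ratio of 3.25. Of all 13, the adjusted ratios ran from 1.13 for Atr to 3.61 for Brca1, with a median of 1.61. Rad50 was just under the ratio of 2, at 1.98. Brca1 was therefore called as deposited, with the trends removed and without each tumour in turn. The removal takes away any difference between tumours that follows GC content or length, whatever its source, and technical and biological sources of such a trend were not separated. The titles of the samples hold numbers that the sources used here do not explain, so a library batch and a tumour cannot be told apart.

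**Figure D4:**
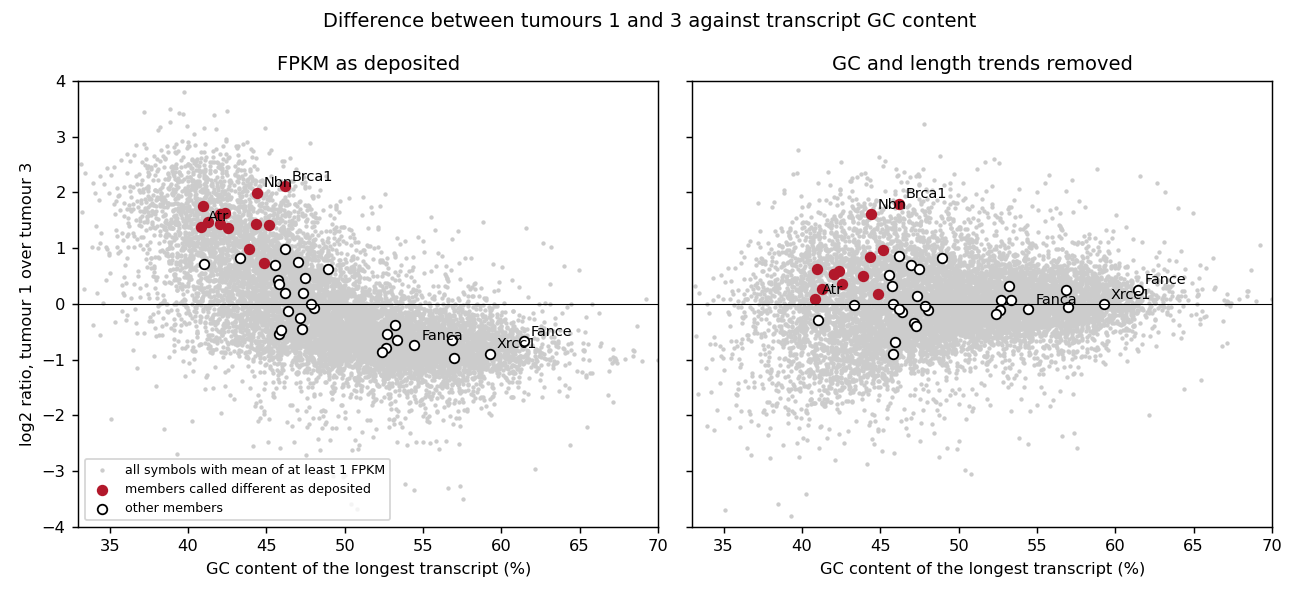
Log2 ratio of tumour 1 over tumour 3 against GC content of the longest transcript in percent, as deposited (left) and with the trends removed (right), for all symbols with a mean of at least 1 FPKM (grey), members called different as deposited (filled) and other members (open). On the left the members fall with GC content (r = -0.79), with Nbn and Brca1 high and Fanca, Xrcc1 and Fance below 0, and on the right the slope is nearly gone (r = -0.21).

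Markers of cell types were read in the same 3 libraries, and the cell makeup of the tumours itself was not measured. The 9 macrophage markers summed to 293, 538 and 996 FPKM in tumours 1, 2 and 3. All 9 were above 1 FPKM, against 54.2% of all symbols. Of the 9, 8 differed between tumours, against 32.5% of all symbols, and none of these was highest in tumour 1. With the trends removed 3 differed, against 17.2%. Their median log2 ratio of tumour 1 over tumour 3 was -1.55 as deposited and -0.83 with the trends removed. The 7 T-cell markers summed to 2.26, 5.21 and 11.5 FPKM, with only Cd3g above 1 FPKM and Cd3e and Cd8a below it. The 8 luminal epithelial markers, which include Krt8 and Epcam, summed to 993, 1366 and 1290 FPKM, all above 1 FPKM and none called different (1 with the trends removed). Of these 8, 7 were above 5 FPKM, against 25.0% of all symbols. Cldn4 was not separated from 5 FPKM at 4.24, 8.01 and 4.35 FPKM. The sums were 265, 349 and 292 FPKM for 8 fibroblast markers, 17.7, 26.9 and 24.9 for 6 endothelial markers and 60.3, 44.7 and 195 for 5 adipocyte markers. Their part in the differences between tumours was not tested.

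Most genes of a p53 network list were above 1 FPKM. The list held genes that p53 is known to induce, and also Cdkn2a, Trp63 and Trp73, which are not counted among its induced targets. Of 31 listed, 30 were tested, because Trp73, a p53 relative, was listed at 0 in all 3 tumours. Of the 30, 23 were above 1 FPKM and 3 below, against 54.2% and 32.5% of all symbols. Their median was 3.68 FPKM, against 2.44 for all symbols tested. The highest were Perp, a junction protein, at 69.1 ± 7.37 FPKM, the kinase Plk2 at 51.6 ± 13.1 FPKM and Ccng1, an atypical cyclin, at 28.1 ± 24.2 FPKM. Those below 1 FPKM were Eda2r, Lrdd (now Pidd1) and Trp63. Cdkn1a, the cell-cycle inhibitor p21, had 10.5, 12.9 and 13.9 FPKM, and Cdkn2a, whose locus encodes the Mdm2 inhibitor p19Arf, had 1.59, 1.31 and 2.88 FPKM. Cdkn1a exceeded Cdkn2a in all 3 tumours by 2.69 ± 0.49 log2 units, a fold of 6.47.

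Of 26 genes of the p53 list tested for differences, 11 differed between tumours (42.3%), against 32.5% of all symbols. Those highest in tumour 1 were Ccng1 (55.7, 17.9 and 10.7 FPKM), Rrm2b (6.01, 1.73 and 1.08), Trp53inp1 (11.0, 4.32 and 2.56) and Polk (4.75, 1.71 and 1.24). Those highest in tumour 3 were Aen, a nuclease of apoptosis, at 7.59, 11.9 and 19.9 FPKM, the apoptosis effector Bax at 6.68, 12.9 and 13.9 FPKM, and Btg2, Cdkn2a and Sesn2. Gadd45a (20.6, 29.7 and 12.4 FPKM) and Bbc3 (0.690, 2.11 and 1.30 FPKM) were highest in tumour 2. These 11 genes did not share an order over the tumours. Only 3 genes of the list differed with the trends removed, against 17.2% of all symbols. Without tumour 1, 2 differed, against 5.72%, and without tumour 3, 5 did, against 14.2%.

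Most of the other repair genes were also above 1 FPKM. Of 64, 48 were above 1 FPKM, against 54.2% of all symbols. Below it were 2, against 32.5%, Lig4 at 0.541 ± 0.229 FPKM and Mutyh at 0.186 ± 0.145 FPKM. Lig4 is the end-joining ligase that Xrcc4 binds. The highest were Ddb1, an adaptor of ubiquitin ligases, at 124 ± 35.9 FPKM, the endonuclease Apex1 at 20.9 ± 5.91 FPKM and the single-stranded DNA binder Rpa1 at 19.7 ± 4.39 FPKM. Of 60 tested, 21 differed between tumours (35.0%), against 32.5% of all symbols. Of the 60, 15 differed and were highest in tumour 1, against 15.7% of all symbols, and 6 in tumour 3, against 13.2%. The 15 were Topbp1, Rnf168, Rif1, Ercc5, Parg, Usp1, Rad17, Mlh3, Pms1, Rbbp8, Msh3, Fancb, Gen1, Rmi1 and Polq, and the 6 highest in tumour 3 included Ercc2, Ung, Nhej1, Mus81 and Neil1. Rbbp8, which starts resection with the Mre11 complex, had 4.85, 0.760 and 1.03 FPKM, a ratio of 6.37. Of the 64 listed, 15 differed with the trends removed, against 17.2% of all symbols. Without tumour 1, 3 did (5.72% of all symbols), and without tumour 3, 10 did (14.2%). Without tumour 2, 1 gene of the list was below 1 FPKM.

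Proliferation markers were well above most of the repair genes in level. Of 23, 22 were above 1 FPKM and none below, against 54.2% and 32.5% of all symbols. Their median was 13.7 FPKM, against 3.11 FPKM for the 41 members. The highest were Pcna at 75.2 ± 3.12 FPKM, Birc5 at 41.3 ± 3.94 FPKM and Top2a at 32.2 ± 21.0 FPKM, and the lowest were Foxm1 at 2.13 ± 0.274 and E2f1 at 2.03 ± 0.674 FPKM. Of the 23, 7 differed between tumours (30.4%), against 32.5% of all symbols. Top2a (55.5, 26.5 and 14.6 FPKM), Mki67 (27.5, 7.63 and 5.87 FPKM), Ccna2 and Bub1 were highest in tumour 1, and Mcm5, Ccne1 and E2f1 in tumour 3. Pcna, the replication clamp, had 78.6, 72.4 and 74.7 FPKM and was not called. Of the markers, 4 differed with the trends removed, against 17.2% of all symbols, and E2f1 then stood at 1.92, 1.89 and 2.05 FPKM. Without tumour 1, 1 of the markers differed, against 5.72% of all symbols, and without tumour 3, 3 did, against 14.2%. The markers did not share an order over the tumours.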

How the data were processed

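Total RNA was measured in 3 tumours of NDL(UCD), numbered 1 to 3 in accession order because the titles give no plain replicate number. Per the labels' protocols, capture probes removed ribosomal RNA, and 50 ng of what was left went into directional, randomly primed libraries. Per the file headers, the authors deposited for each gene its FPKM, the bounds of an interval around it and a status. TopHat, Cufflinks and mm9 are named in the submitters' processing notes, without roles. The sources used here give no versions, annotation or strand setting. FPKM values are relative to the library's total, so abundant transcripts lower all other values.

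Each file held 22310 rows. Rows of the same symbol were summed for 221 symbols, which left 21881 symbols, and 182 without a status of OK in all tumours were not tested. Tumours 1, 2 and 3 had FPKM totals of 318509, 375968 and 364195, and the fragments implied by FPKM and its interval summed to 11.6, 12.35 and 13.3 M.

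Levels were tested with limma 3.58.1 (R 4.3.3), applied to log2((FPKM + 0.1)/(L + 0.1)) with L at 1 or 5 FPKM, an intercept, a mean-variance trend and robust moderation. It covered 18028 symbols above 0 in at least 1 tumour, with Benjamini-Hochberg adjustment over all of them. With 3 tumours of 1 line, limma's p-values rest on the spread between these tumours only. Moderation draws each gene's variance toward the trend over all symbols, so a limma SE or p-value does not measure that gene's own spread alone. Cochran's Q had 2 degrees of freedom and took the half-width of an interval as 2 standard errors, for symbols with a mean of at least 1 FPKM. Intervals and Q cover counting error only. The 23 gene pairs were tested by an exact sign-flip permutation over the tumours. GC content and length came from the longest GENCODE vM21 transcript of a gene's name, which matched 98.2% of symbols and all 41 members. The trends were lowess curves (span 0.3) of each tumour's log2 deviation from the mean of the 3, so they leave that mean in place. Coordinates of loci are those deposited on mm9, written from 1. Promoter windows are from RefSeq on GRCm38.p6. The level test and the Q test were tested on simulated data.

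The members and the gene lists were chosen with earlier results of these data known. All members are named. Of each other pathway list the text names the 3 highest, the 2 lowest and those that differed between tumours. Cdkn1a was named as part of a gene pair. Some genes of the lists are not reported here. Alternatives were another pseudocount, a filter on low values, TPM, median-of-ratios scaling, limma without trend and robust moderation, removal of the trends, other ratios and a lower mean for Q, and leaving out each tumour.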

Additional observations from a re-analysis of the deposited data

How the results depend on the processing

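The members above 1 FPKM numbered 25 to 41 over all alternatives (29 as reported), and none was below 1 FPKM under any of them. With TPM, which moved the median gene by 1.46 log2 units, 20 members were above 5 and 3 below, against 7 and 22 as reported. Leaving out each tumour gave 3 to 9 members above 5 FPKM and 14 to 24 below. The members that differed between tumours numbered 2 with the trends removed, 27 with a ratio of 1.5 and 35 with none, and 1 to 12 with a tumour left out, against 13. They numbered 18 with median-of-ratios scaling, which added Fancl, Mdm2, Mdm4, Palb2 and Xrcc5.

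Other repair genes below 1 FPKM numbered 0 with TPM, 0 with a filter at a mean of 0.5 FPKM, 1 with median-of-ratios and 1 to 2 with a tumour left out, against 2. Those that differed numbered 39 with a ratio of 1.5, 51 with none and 3 to 21 with a tumour left out, against 21. The genes of the p53 list below 1 FPKM numbered 0 with TPM and 1 with the filter, against 3. Those that differed numbered 3 with the trends removed, 19 with a ratio of 1.5, 24 with none and 2 to 8 with a tumour left out, against 11. The proliferation markers that differed numbered 4 with the trends removed, 14 with a ratio of 1.5, 22 with none and 1 to 7 with a tumour left out, against 7.

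With TPM, values against 5 turned positive for Atm (0.68 log2 units), Atr (0.60), Brca1 (1.04), Fanca (1.28), Fancc (1.09), Fanci (0.38), Fancl (1.41), Fancm (0.45), Nbn (0.0515), Parp2 (0.79), Pms2 (0.77), Rad50 (1.28), Rad51ap1 (0.60), Rad52 (1.17), Wrn (0.27) and Xrcc2 (1.11), and against 1 for Fancf (1.25) and Fancg (1.04). That shift is part of the scale itself. With a tumour left out, log2 values against 1 FPKM ran through 0, from -0.41 to 0.41 for Brca2, -0.18 to 0.56 for Brip1, -0.43 to 0.45 for Chek1, -0.10 to 0.27 for Palb2, -0.10 to 0.40 for Rad54b, -0.0007 to 0.17 for Fancd2 and -0.38 to 0.10 for Fancf. Against 5 FPKM they ran from -0.96 to 0.10 for Brca1, -0.23 to 0.13 for Fancl, -0.62 to 0.094 for Rad50 and -0.35 to 0.38 for Xrcc4. Palb2 over Brca2 ran from -0.26 to 0.31 and Trp53 over Mdm2 from -0.62 to 0.20. The cause was not tested. Of 1386 values of single genes and pairs under alternatives, 1211 kept their direction and side of the threshold, 79 gained and 65 lost a call, and 31 changed sign.

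No paired analysis was possible because all samples form 1 group and their titles carry no plain replicate number. Depth limits the lowest members: Fancf rested on 26 implied fragments in tumour 1.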
